A study of Homo sapiens with 8 samples.

Results

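The DNA replication genes described here encode the proteins that license origins, start and move the replication fork, copy both strands and supply the deoxynucleotides. They are 49 genes chosen by name for these roles, and their probes were found through the RefSeq accession that the array files give for each probe. A gene counted as measured when at least 1 of its probes was well above background on each of the 8 arrays, and where several were, the brightest was used. By this rule, 47 of the 49 genes were measured, out of 10956 measured genes in all. The probe of CDC6, which loads the helicase with CDT1, was well above background on 7 of 8 arrays, and CDC6 was therefore left out of all counts. No probe was matched to POLA2, a subunit of polymerase alpha, and it was not analyzed here.

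A431 cells, a human cutaneous squamous cell carcinoma line, were transfected with 10 nM of miR-NC, a nontargeting control, or 10 nM of miR-634 and were lysed 24 h later. Total RNA was taken as the input, and RNA bound to AGO2, the protein that holds a miRNA on its target mRNA, was taken by RNP immunoprecipitation (RIP). Each transfection thus gave an input group and a RIP group, and the 4 groups had 2 one-color Agilent arrays each, all on 1 slide and in 1 scan. The cell line, the dose and the time were the same in all 4 groups. The sample labels give normal rabbit IgG as the antibody of the input arrays, although the methods describe total RNA. They are taken as input here. The sources do not say whether a duplicate was a separate transfection, so p-values measure only the spread between these arrays, which may be technical. Of 16 squamous epithelial markers, all 16 were measured, and of 7 fibroblast markers none was. Of 6 leukocyte markers, CD14 alone was measured. Between 45.6% and 45.8% of spots were well above background on the input arrays, 33.6% and 34.5% on the RIP arrays after miR-NC, and 40.0% on both RIP arrays after miR-634. The part of this gap in the results was not tested. The median SD of the replication genes between the 2 arrays of a group lay between 0.03 and 0.04 on the log2 scale, and with 2 arrays a group the precision is limited.

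Replication begins at origins bound by the origin recognition complex, on which CDC6 and CDT1 load the MCM2 to MCM7 helicase in a step called licensing, and geminin blocks CDT1 once S phase has begun. The DDK and CDK kinases then recruit CDC45 and the GINS complex, which turn the loaded helicase into the active one. Polymerase alpha and primase lay down primers, the RFC complex loads the sliding clamp PCNA, polymerases delta and epsilon extend the strands, and FEN1 and LIG1 process and join the Okazaki fragments. Transcription of many of these genes is driven by E2F factors at the start of S phase, which is why their total mRNA often moves as one group in dividing cells. An mRNA that a miRNA targets is held by AGO2 and is often degraded, so that a target can have a higher RIP level and a lower total level.

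The sequence of the transfected miRNA is shown because its seed is the part that pairs with target mRNAs. The capitals mark the seed, bases 2 to 8 counted from the 5′ end. The sequence and its position are those of RefSeq on GRCh38.p14, chr17:66787132-66787153 on the plus strand, which lies within the span of the protein-coding gene PRKCA.
hsa-miR-634: aACCAGCAccccaacuuuggac
No transcript sequences were used here, so pairing of this seed with the replication mRNAs was not analyzed.

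A level is the log2 intensity minus the 75th percentile of its array, taken over the 16805 probes well above background on all 8 arrays. The enrichment is the mean RIP level minus the mean input level within one kind of cell. The SD given with an enrichment is that of 2 differences, each a RIP array minus the input array of the same number. Whether the numbers match a RIP array to its input is not known, so this SD rests on an assumed matching. The standard errors come from the model and do not use it. The fold change of enrichment is the difference of the 2 enrichments, miR-634 minus miR-NC. The input change and the RIP change are the miR-634 mean minus the miR-NC mean of the input or RIP arrays, and the fold change of enrichment is the RIP change minus the input change. All 5 are on the log2 scale and were tested with limma in a model of the 4 groups, with p-values adjusted by Benjamini-Hochberg over the 10956 genes. A gene is called higher or lower where the adjusted p is under 0.05. Because each array is set to its own percentile, every direction is relative to the bulk of the probes on the arrays. The all-gene median of the fold change of enrichment was -0.22. With scaling on the spike-in control probes, it was 0.86, and every gene's fold change rose by 1.08, its enrichment fell by 2.53 in miR-NC cells and by 1.45 in miR-634 cells, its RIP change rose by 0.86 and its input change fell by 0.22. The mean spike-in level was 1.91 to 2.36 on the input arrays, 4.42 and 4.52 on the RIP arrays after miR-NC, and 3.60 and 3.63 on those after miR-634. Ranks among all genes do not move with such a shift, and they are given beside the changes as percentiles. In these bulk lysates, fewer cells of a kind and less RNA per cell cannot be told apart.

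The replication genes did not move as one group, and the shares called in each direction lay near those of all measured genes. For the fold change of enrichment, 16 of 47 were called higher, where 28.1% of all measured genes were, and 21 of 47 were called lower, where 43.3% were. The remaining 10 were not called. The median over the 47 genes was -0.20, beside -0.22 over all measured genes, so that 26 lay above the all-gene median and 21 below it. The values ran from -2.67 for RFC4 to 3.52 for POLD2, with an SD across the genes of 1.06, beside 0.94 over all measured genes. By more than 2-fold, 7 were higher, where 13.3% of all genes were, and 5 were lower, where 8.56% were. With spike-in scaling, the same values are 1.08 higher, so that 32 genes were called higher and 2 lower. Of all 10956 measured genes, 7301 were called higher and 193 lower with that scaling. Among the 47, only DBF4, GINS3, ORC4, RFC4 and RPA3 remained below 0.

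**Figure D1:**
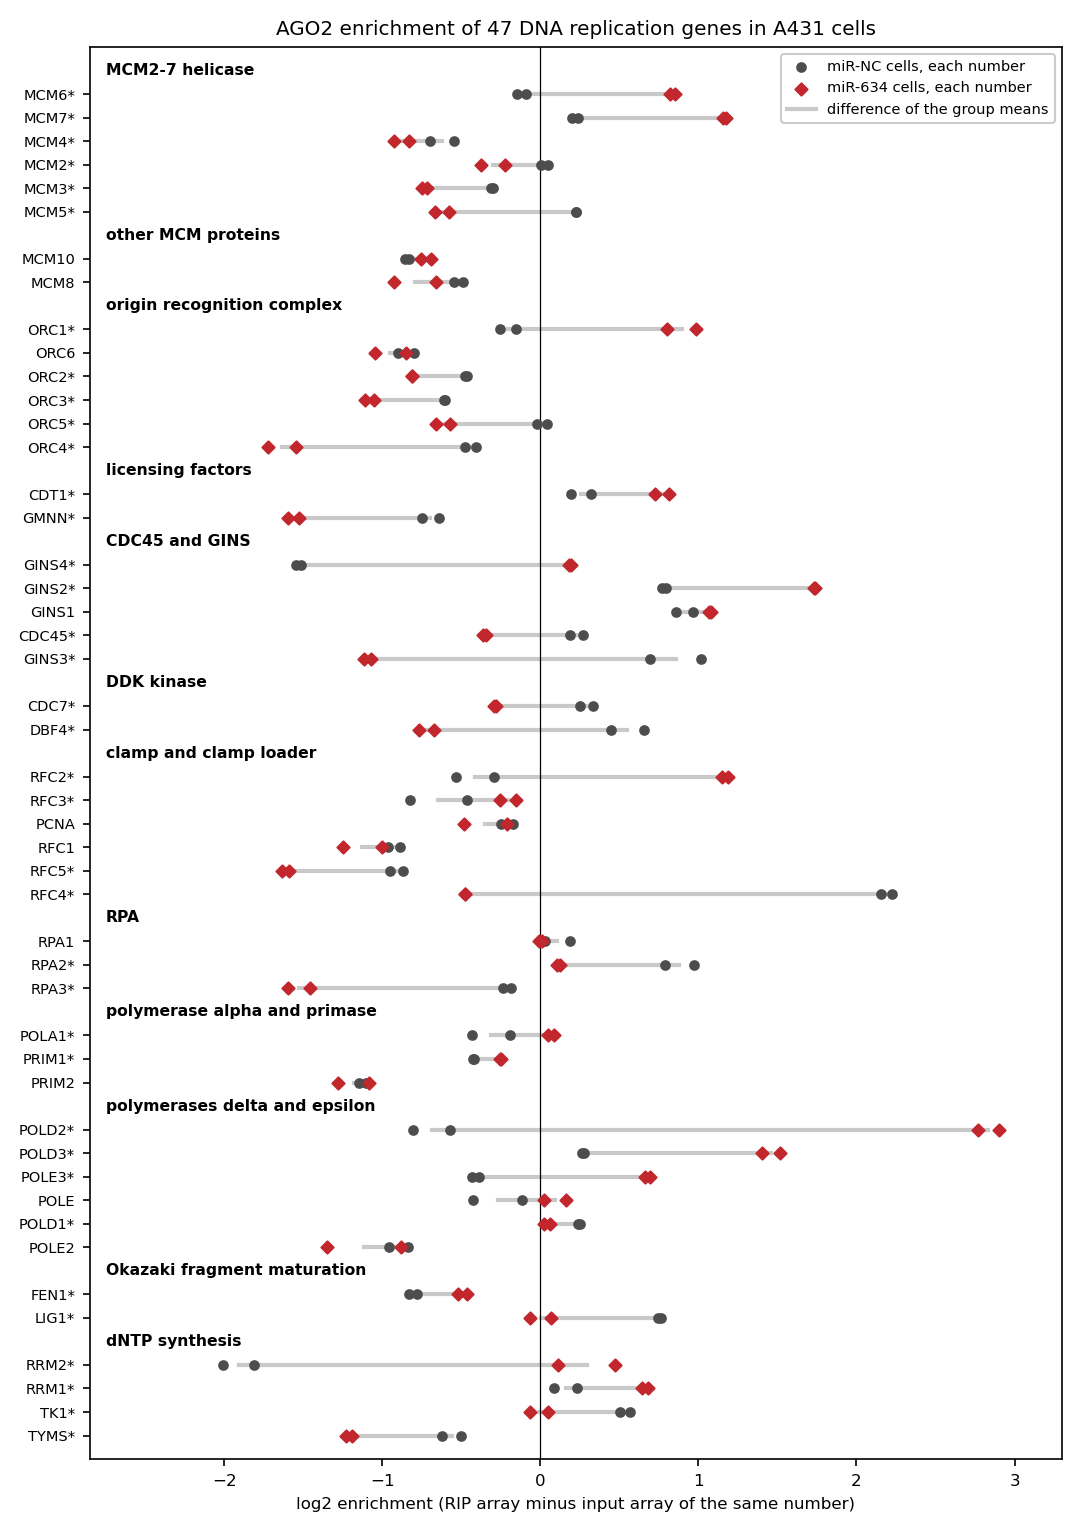
Log2 enrichment of the 47 measured replication genes, grouped by role and, within a role, ordered by the fold change of enrichment. Grey circles are miR-NC cells and red diamonds miR-634 cells, each symbol the RIP array minus the input array of one number, the grey bar joins the group means, and an asterisk marks a fold change of enrichment with an adjusted p under 0.05 (37 of 47). Within most roles some red pairs lie to the right of the grey pairs and others to the left. The zero line depends on the scaling.

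In miR-NC cells, 15 of 47 replication genes were called higher in the RIP than in the input, where 33.6% of all genes were, and 25 were called lower, where 45.3% were. Their median enrichment was -0.27, against -0.12 over all genes. In miR-634 cells, 12 were called higher, where 36.1% of all genes were, and 26 lower, where 48.3% were, with a median of -0.30 against -0.17 over all genes. With spike-in scaling, none was called higher and 46 were called lower in miR-NC cells, where 63 and 10742 of all 10956 genes were. In miR-634 cells with that scaling, 1 was called higher and 41 lower, where 708 and 9195 of all genes were. The RIP change was called higher for 15 genes, where 30.9% of all genes were, and lower for 25, where 46.5% were, with a median of -0.20 against -0.18. The input change was called higher for 2 genes, where 11.7% of all genes were, and lower for 9, where 12.1% were, with a median of -0.01 against -0.00 over all genes. None of the input changes exceeded 2-fold in either direction, and they ran from -0.69 to 0.26. Of all 10956 measured genes, only 12 were higher and 43 lower by more than 2-fold in the input. Across the replication genes, the RIP level thus moved over a far wider range than the input level, from -2.62 to 2.83. The same held over all measured genes, with -4.32 to 5.29 in the RIP change and -1.78 to 1.82 in the input change.

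**Figure D2:**
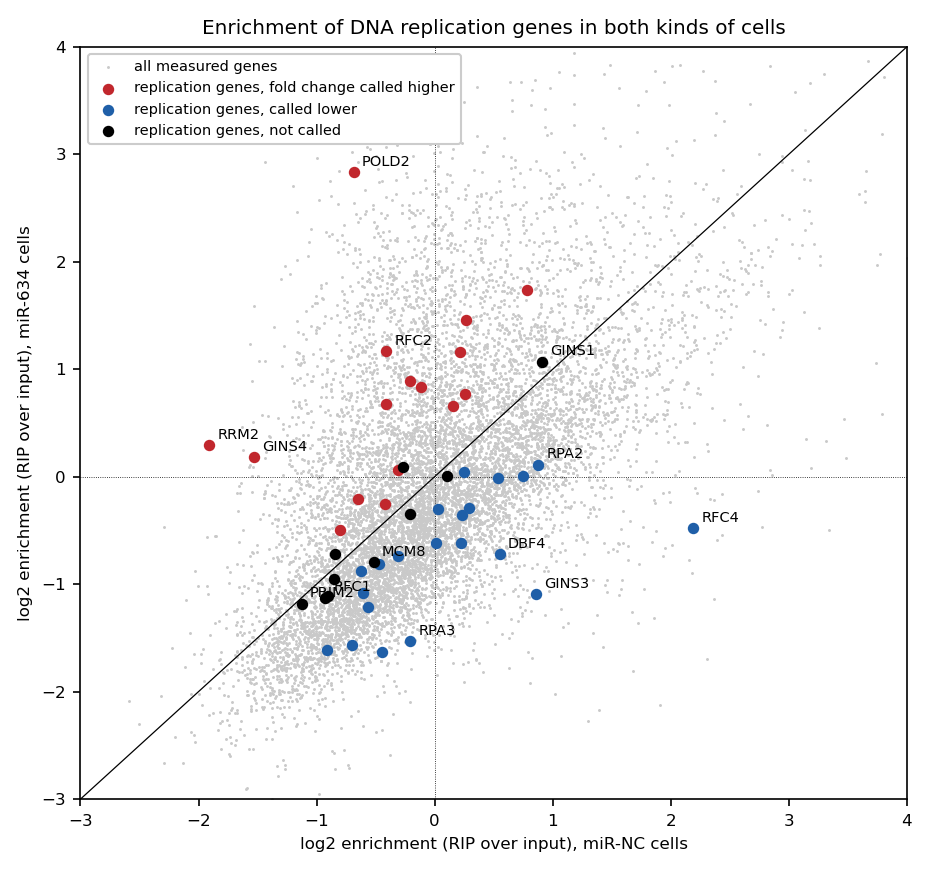
Log2 enrichment in miR-634 cells (y axis) against miR-NC cells (x axis) for all measured genes (grey) and the 47 replication genes (red, fold change of enrichment called higher; blue, called lower; black, not called), with the line of equal enrichment. POLD2 lies far above the line and RFC4 and GINS3 far below it, within the cloud of all genes, of which a few lie beyond the axes. With spike-in scaling, every point moves left and down by the same amounts.

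Among the genes of origin licensing, the origin recognition complex had 1 subunit higher and 4 lower of 6 in the fold change of enrichment, with a median of -0.41, and with spike-in scaling 5 of the 6 were above 0. ORC1, the subunit that recognizes origin chromatin and whose supply changes through the cell cycle, was the one that rose. Its enrichment was -0.20 ± 0.07 after miR-NC and 0.89 ± 0.13 after miR-634 (SD, n = 2 each), a fold change of 1.1 (standard error 0.09, adjusted p = 8.47e-05). ORC4 showed the opposite, from -0.44 ± 0.05 to -1.64 ± 0.13 (SD, n = 2 each), a fold change of -1.19 (standard error 0.08, adjusted p = 2.85e-05) at percentile 4.96 of all genes. ORC2, ORC3 and ORC5 fell by 0.34, 0.48 and 0.62, and the -0.10 of ORC6 was not called. The calls of ORC2 and ORC3 were lost when the mean of their probes was used, and that of ORC2 also with normexp and quantile normalization, the 75th percentile over all probes, centering on the median gene and the authors' processed values. No subunit had a called input change, the values lying between -0.17 and 0.01.

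The licensing factors CDT1 and geminin went in opposite directions. CDT1, which brings the helicase to the origin, had a fold change of enrichment of 0.51 (standard error 0.07, adjusted p = 0.000961), and GMNN, which encodes its inhibitor geminin, one of -0.87 (standard error 0.07, adjusted p = 5.99e-05). The GMNN enrichment was below 0 in both kinds of cells, -0.70 ± 0.08 and -1.56 ± 0.05 (SD, n = 2 each), while that of CDT1 was above 0 in both, at 0.26 ± 0.09 and 0.77 ± 0.06 (SD, n = 2 each). With spike-in scaling, both fold changes were above 0.

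The subunits of the MCM2 to MCM7 helicase, which act as one ring, also divided, with 2 higher, 4 lower and none uncalled. MCM6 and MCM7 had fold changes of enrichment of 0.96 and 0.95 (adjusted p = 3.92e-05 and 4.04e-05), at percentiles 86.0 and 85.8 of all genes. MCM5 fell by 0.85 (adjusted p = 6.07e-05) and MCM3 by 0.43 (adjusted p = 0.000724). The falls of MCM2 and MCM4, by 0.33 and 0.26, lay at percentiles 43.7 and 47.8, close to the all-gene median. Their calls were lost under several scalings, among them the authors' processed values, and on leaving out single arrays. With an array left out, the values ran from -0.40 to -0.25 for MCM2 and from -0.32 to -0.19 for MCM4. The call of MCM4 was also lost with the replicate block. With spike-in scaling, all 6 were above 0. Both probes of MCM7 and both probes of MCM5 gave the same direction, with 0.95 and 1.0 for MCM7 and -0.85 and -0.75 for MCM5. No helicase subunit had a called input change, with values from -0.09 to 0.07, so that the differences between subunits lay in the RIP arrays.

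Neither MCM10, a factor that acts in starting replication, nor MCM8, a helicase of recombination repair, was called in the fold change of enrichment, at 0.12 and -0.28 (adjusted p = 0.246 and 0.0505). The level of MCM8 (NM_182802), named for its input change, in the 2 arrays of a group was -1.07 and -1.05 (input) and -1.56 and -1.60 (RIP) for miR-NC, against -0.90 and -0.85 (input) and -1.56 and -1.77 (RIP) for miR-634. Its input arrays were higher in miR-634 cells without overlap, but the input change of 0.19 was not called (standard error 0.07, adjusted p = 0.119).

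Both subunits of DDK, the kinase that fires licensed origins, fell in the fold change of enrichment. The level of DBF4 (NM_006716), the activating subunit, in the 2 arrays of a group was -1.65 and -1.61 (input) and -1.0 and -1.16 (RIP) for miR-NC, against -1.36 and -1.52 (input) and -2.13 and -2.2 (RIP) for miR-634. The RIP arrays were above the input arrays in miR-NC cells and below them in miR-634 cells, with no overlap. Its enrichment thus went from 0.55 ± 0.15 to -0.72 ± 0.07 (SD, n = 2 each), a fold change of -1.27 (standard error 0.11, adjusted p = 0.000103). CDC7, the catalytic subunit, went from 0.29 ± 0.06 to -0.29 ± 0.01 (SD, n = 2 each), a fold change of -0.58 (standard error 0.07, adjusted p = 0.000497). With spike-in scaling, the fold change of DBF4 was -0.19 and no longer called, and that of CDC7 was above 0.

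CDC45 and the 4 GINS subunits, the cofactors that activate the helicase, held a large part of the spread. In miR-NC cells, 4 of the 5 were enriched in the RIP by the percentile scaling, with a group median of 0.78 against -0.12 over all genes, and GINS4 was the exception. The level of GINS4 (NM_032336) in the 2 arrays of a group was 0.03 and 0.02 (input) and -1.52 and -1.49 (RIP) for miR-NC, against -0.14 and -0.20 (input) and 0.04 and -0.01 (RIP) for miR-634. The miR-NC RIP arrays were the low ones, and the other 6 arrays lay close together. Its enrichment was -1.53 ± 0.02 after miR-NC, at percentile 1.68 of all genes, and 0.19 ± 0.01 after miR-634 (SD, n = 2 each), a fold change of 1.72 (standard error 0.06, adjusted p = 2.77e-06).

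GINS3 moved the other way. The level of GINS3 (NM_022770) in the 2 arrays of a group was -0.03 and 0.14 (input) and 0.99 and 0.84 (RIP) for miR-NC, against 0.21 and 0.19 (input) and -0.86 and -0.93 (RIP) for miR-634. The highest arrays were the miR-NC RIP arrays and the lowest the miR-634 RIP arrays, with the 4 input arrays between them. The enrichment of GINS3 was 0.86 ± 0.23 after miR-NC and -1.09 ± 0.03 after miR-634 (SD, n = 2 each), a fold change of -1.95 (standard error 0.11, adjusted p = 1.48e-05) at percentile 1.06, and it stayed below 0 with spike-in scaling.

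GINS1 was among the most enriched replication genes in both kinds of cells. The level of GINS1 (NM_021067) in the 2 arrays of a group was 1.16 and 1.19 (input) and 2.12 and 2.05 (RIP) for miR-NC, against 0.73 and 0.70 (input) and 1.81 and 1.77 (RIP) for miR-634. Both its input and its RIP arrays were lower in miR-634 cells without overlap, by 0.46 in the input (standard error 0.05, adjusted p = 0.00181) and by 0.30 in the RIP (adjusted p = 0.0012). As both terms fell, the fold change of enrichment of 0.16 was not called (adjusted p = 0.0683). GINS2 rose by 0.95 (standard error 0.06, adjusted p = 2.29e-05) and had the highest enrichment of this group in miR-634 cells, 1.73. CDC45 fell by 0.58 (standard error 0.07, adjusted p = 0.000305).

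Of the 3 subunits of RPA, which coats single-stranded DNA, RPA2 and RPA3 fell and RPA1, the largest subunit, was not called at -0.11 (adjusted p = 0.262). The level of RPA3 (NM_002947) in the 2 arrays of a group was 3.56 and 3.57 (input) and 3.38 and 3.34 (RIP) for miR-NC, against 3.44 and 3.39 (input) and 1.98 and 1.79 (RIP) for miR-634. The miR-634 RIP arrays were far below the other 6. Its enrichment was -0.21 ± 0.04 and -1.53 ± 0.10 (SD, n = 2 each), a fold change of -1.32 (standard error 0.10, adjusted p = 5.08e-05).

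The level of RPA2 (NM_002946) in the 2 arrays of a group was 0.97 and 1.08 (input) and 1.94 and 1.87 (RIP) for miR-NC, against 1.03 and 1.03 (input) and 1.13 and 1.16 (RIP) for miR-634. RPA2 was thus high on the miR-NC RIP arrays and at about one level on the others. Its enrichment went from 0.88 ± 0.13 to 0.11 ± 0.01 (SD, n = 2 each), a fold change of -0.77 (standard error 0.08, adjusted p = 0.000187), and its second probe gave -0.71. With spike-in scaling, RPA2 was at 0.31, and RPA3 at -0.24 was not called.

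The clamp and its loader held both the lowest fold change of enrichment of the 47 genes and one of the highest. The level of RFC4 (NM_002916), a small subunit of the clamp loader, in the 2 arrays of a group was 1.58 and 1.64 (input) and 3.81 and 3.79 (RIP) for miR-NC, against 1.68 and 1.62 (input) and 1.21 and 1.15 (RIP) for miR-634. The miR-NC RIP arrays stood well above the other 6. RFC4 had the highest enrichment of the replication genes in miR-NC cells, 2.19 ± 0.05 (SD, n = 2) at percentile 98.1 of all genes. In miR-634 cells its enrichment was -0.48, with an SD under 0.01 (n = 2) when arrays are matched by number and a standard error of 0.05. The fold change of -2.67 (standard error 0.07, adjusted p = 9.34e-07), 0.158-fold on the linear scale, lay at percentile 0.32, with an input change of 0.04 (adjusted p = 0.582). With spike-in scaling, the miR-NC enrichment of RFC4 was below 0 and not called, while the fold change of enrichment stayed below 0.

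RFC2, another small subunit of the same loader, rose. The level of RFC2 (NM_181471) in the 2 arrays of a group was -0.77 and -0.81 (input) and -1.31 and -1.1 (RIP) for miR-NC, against -0.85 and -0.79 (input) and 0.30 and 0.40 (RIP) for miR-634. Only the miR-634 RIP arrays were high. Its enrichment was -0.41 ± 0.17 and 1.17 ± 0.03 (SD, n = 2 each), a fold change of 1.58 (standard error 0.11, adjusted p = 3.49e-05), with an input change of -0.03 (adjusted p = 0.834).

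Of the other loader subunits, RFC3 rose by 0.44 (adjusted p = 0.0255) and RFC5 fell by 0.70 (adjusted p = 0.000109). The call of RFC3 was lost without miR-NC input replicate 2, miR-634 input replicate 2 or either miR-634 RIP array, with values between 0.30 and 0.58 when an array was left out. The level of RFC1 (NM_002913), the large subunit, in the 2 arrays of a group was -1.80 and -1.89 (input) and -2.76 and -2.78 (RIP) for miR-NC, against -1.49 and -1.68 (input) and -2.74 and -2.68 (RIP) for miR-634. RFC1 was low in the RIP of both kinds of cells, and its fold change of -0.20 was not called (adjusted p = 0.125). PCNA, the clamp itself, was not called at -0.14 (standard error 0.16, adjusted p = 0.463), and its second probe gave 0.05. With spike-in scaling, every member of this group except RFC4 was above 0.

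Of polymerase alpha and primase, which make the primers, POLA1 and PRIM1 rose by small amounts, 0.38 and 0.17 (adjusted p = 0.0207 and 0.0403), and neither had a called RIP change. Both calls were lost on leaving out single arrays, namely miR-NC input replicate 1, miR-634 input replicate 2 or miR-634 RIP replicate 1 for POLA1. The level of PRIM2 (NM_000947), the large primase subunit, in the 2 arrays of a group was -0.99 and -0.97 (input) and -2.09 and -2.11 (RIP) for miR-NC, against -0.97 and -1.12 (input) and -2.25 and -2.2 (RIP) for miR-634. Its RIP arrays were about equally low in both kinds of cells, with enrichments of -1.13 ± 0.03 and -1.18 ± 0.14 (SD, n = 2 each) and a fold change of -0.06 that was not called (adjusted p = 0.58).

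Polymerases delta and epsilon, which extend the lagging and the leading strand, had 3 genes higher and 1 lower of 6, with a group median of 0.73. All 6 lay above the all-gene median of -0.22 in the fold change of enrichment, POLD1 and POLE2 only just, and all 6 were above 0 with spike-in scaling. The level of POLD2 (NM_006230), the regulatory subunit of polymerase delta, in the 2 arrays of a group was -1.29 and -1.46 (input) and -1.86 and -2.26 (RIP) for miR-NC, against -2.13 and -2.01 (input) and 0.77 and 0.76 (RIP) for miR-634. The miR-634 RIP arrays were the highest of the 8 by a wide margin, whereas the miR-634 input arrays were below the miR-NC input arrays. Its enrichment was -0.69 ± 0.17 after miR-NC and 2.83 ± 0.09 after miR-634 (SD, n = 2 each). The fold change of 3.52 (standard error 0.19, adjusted p = 1.11e-05), 11.5-fold on the linear scale, was the largest of the replication genes and lay at percentile 99.7 of all genes. Its input change was -0.69 (standard error 0.13, adjusted p = 0.014) and its RIP change 2.83 (adjusted p = 3.88e-06).

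POLD3, the subunit that binds the clamp, rose by 1.19 (standard error 0.07, adjusted p = 1.55e-05) with an input change of -0.40 (adjusted p = 0.00287), and POLE3, a small histone-fold subunit of polymerase epsilon, by 1.09 (standard error 0.07, adjusted p = 2.07e-05) with an input change of -0.20 (adjusted p = 0.0269). POLD1, the catalytic subunit of polymerase delta, fell by 0.20 (adjusted p = 0.0293), at percentile 50.6 of all genes, and its call was lost under most alternatives. The value of POLE, the catalytic subunit of polymerase epsilon, was 0.37 and was not called (adjusted p = 0.0665), while its RIP change of 0.49 was (adjusted p = 0.00509). POLE2, an accessory subunit, was at -0.21 and not called (adjusted p = 0.235).

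**Figure D3:**
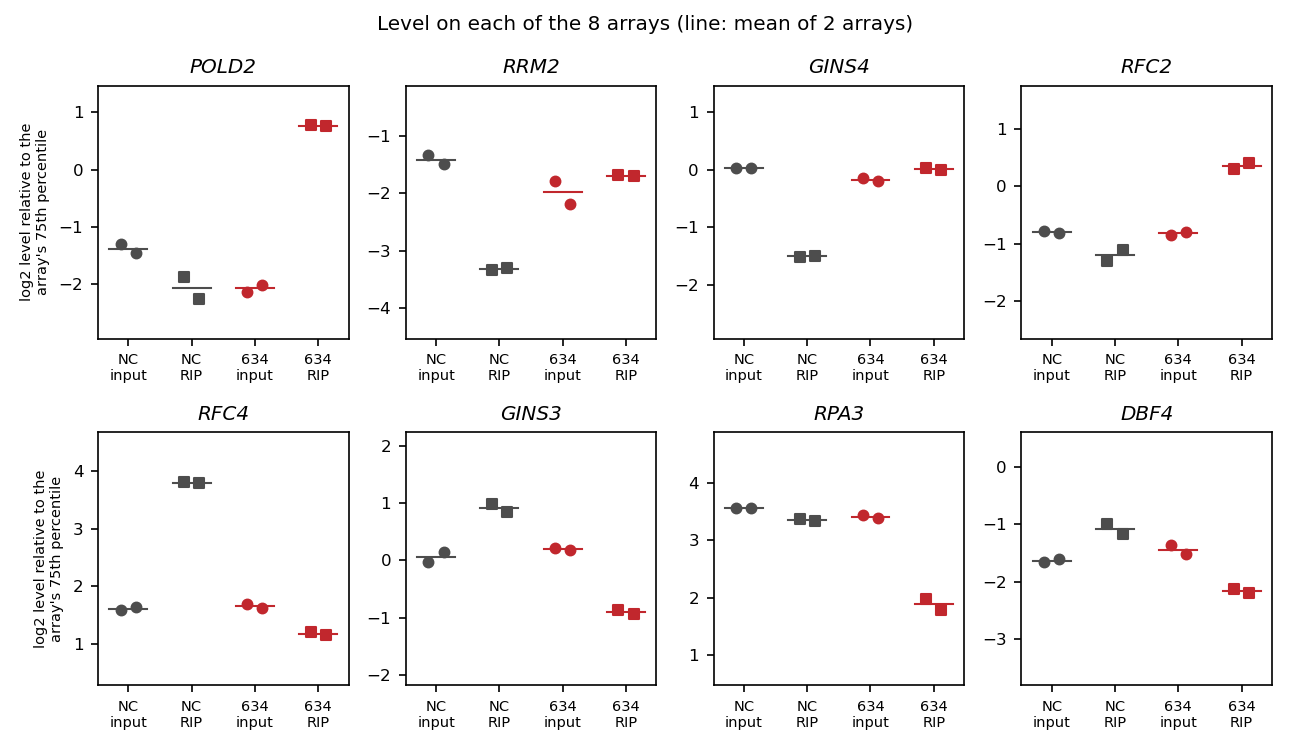
Log2 level of 8 replication genes on each of the 8 arrays, relative to the array's 75th percentile, with a line at the mean of the 2 arrays of a group (labels name the transfected miRNA; circles, input; squares, RIP). The upper row has the 4 genes with the largest fold change of enrichment and the lower row the 4 with the smallest, and all axes span 4.4 units. The RIP arrays of the 2 kinds of cells do not overlap in any of the 8 genes, which were chosen by their fold change. Overlap was not counted over all measured genes, of which 30.9% were called higher and 46.5% lower in the RIP change. The input arrays of POLD2, RRM2, GINS4 and RPA3 are lower after miR-634 without overlap, by the most in POLD2 and RRM2. Those of GINS3 and DBF4 are higher without overlap.

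For Okazaki fragment maturation, FEN1, the flap nuclease, rose by 0.31 (standard error 0.07, adjusted p = 0.008) and LIG1, the ligase that seals the fragments, fell by 0.75 (standard error 0.09, adjusted p = 0.000311). LIG1 was enriched in miR-NC cells, at 0.75 ± 0.01 (SD, n = 2), and at 0.00 ± 0.09 (SD, n = 2) in miR-634 cells. FEN1 was below 0 in both, at -0.80 ± 0.04 and -0.49 ± 0.04 (SD, n = 2 each). With spike-in scaling, both fold changes were above 0.

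The 4 genes of deoxynucleotide synthesis divided equally. The level of RRM2 (NM_001034), the small subunit of ribonucleotide reductase, whose supply limits the enzyme in S phase, in the 2 arrays of a group was -1.33 and -1.5 (input) and -3.34 and -3.31 (RIP) for miR-NC, against -1.79 and -2.18 (input) and -1.68 and -1.71 (RIP) for miR-634. The miR-NC RIP arrays were the lowest by far, and RRM2 had the lowest enrichment of the 47 genes in miR-NC cells, -1.91 ± 0.14 (SD, n = 2), at percentile 0.3 of all genes. The fold change of 2.2 (standard error 0.18, adjusted p = 6.98e-05), 4.6-fold on the linear scale, was the second largest, although the enrichment in miR-634 cells, 0.30 ± 0.26 (SD, n = 2), was not called (adjusted p = 0.0654). RRM1, the large subunit of the same enzyme, rose by 0.50 (adjusted p = 0.0131). TYMS, which makes thymidylate, fell by 0.65 (adjusted p = 0.000752), and TK1, the salvage kinase, by 0.54 (adjusted p = 0.000536). With spike-in scaling, all 4 were above 0.

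Some genes went from below to above their input, or the reverse, between the 2 kinds of cells. By the percentile scaling, 6 of 47 genes were called enriched in miR-NC cells and depleted in miR-634 cells, where 6.1% of all measured genes were, namely RFC4, GINS3, DBF4, MCM5, CDC45 and CDC7. The reverse held for 5 of 47, where it held for 8.45% of all measured genes, namely POLD2, GINS4, RFC2, ORC1 and POLE3. Whether these shares differ was not tested. The zero of the enrichment depends on the scaling. With spike-in scaling, none of the 47 genes was called enriched in miR-NC cells, where 63 of all 10956 measured genes were. The 6 thus did not keep calls of opposite sign. That scaling moved the miR-634 enrichment by -1.45, and of the 5 only POLD2 was still above its input there. The call of ORC1 in miR-NC cells and of CDC7 in miR-634 cells was lost under some of the other scalings as well.

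The input change tells whether the total mRNA moved. The 2 genes called higher were RFC1, by 0.26 (standard error 0.07, adjusted p = 0.047), and RFC5, by 0.16 (standard error 0.04, adjusted p = 0.0437), and both calls were lost with the replicate block and on leaving out any of several single arrays. The 9 genes called lower were POLD2, RRM2, GINS1, POLD3, CDC7, POLE3, GINS4, PRIM1 and GINS2. After the 3 that fell most, POLD2 by 0.69, RRM2 by 0.57 (standard error 0.13, adjusted p = 0.0221) and GINS1 by 0.46, the others fell by 0.17 to 0.40. Without miR-NC input replicate 1 or miR-634 input replicate 2, neither POLD2 nor RRM2 was called in the input, at -0.61 and -0.75 for POLD2 and -0.49 and -0.38 for RRM2. Without miR-634 input replicate 1, POLD2 was not called at -0.63, and without miR-NC input replicate 2, RRM2 was not called at -0.66. CDC7, POLE3, GINS4, PRIM1 and GINS2 each lost the call on leaving out any 1 of the 4 input arrays, and also with the 75th percentile over all probes and with the authors' processed values. The calls of GINS1 and POLD3 were kept in all of the alternatives run on the adjusted p. DBF4, with the second largest value in the input, 0.19 (standard error 0.08, adjusted p = 0.137), was not called.

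For most genes with a called fold change of enrichment, the RIP arrays carried it. Of the 21 genes called lower, all 21 had a called RIP change downward that was larger than their input change, and RFC5 also had a called input change upward. Of the 16 called higher, 14 had a called RIP change upward, and in 6 of these, GINS2, GINS4, POLD2, POLD3, POLE3 and RRM2, the input change was also called downward. Of these 6 input calls, only that of POLD3 was kept when single input arrays were left out. The remaining 2 were POLA1 and PRIM1, whose input change was larger than their RIP change. The fold change of enrichment is built from these 2 terms, so that these counts describe it and are not a separate result. The same counts were not made over all measured genes, so whether they are particular to the replication genes was not tested. Over all measured genes, the SD across genes was 0.85 in the RIP change and 0.25 in the input change. Over the replication genes, these SDs were 0.96 and 0.20.

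**Figure D4:**
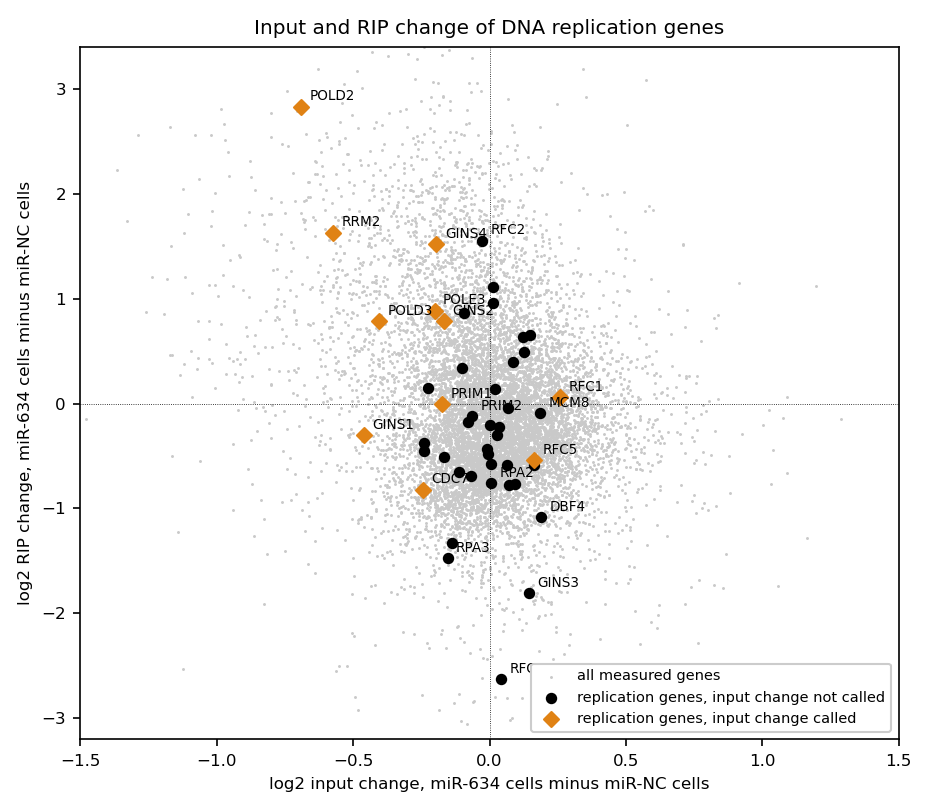
Log2 RIP change (y axis) against log2 input change (x axis), miR-634 cells minus miR-NC cells, for all measured genes (grey, a few beyond the axes) and the 47 replication genes (black circles; orange diamonds where the input change had an adjusted p under 0.05, 11 genes). The replication genes spread along the y axis from -2.62 to 2.83 and along the x axis from -0.69 to 0.26, and POLD2 and RRM2 lie at the upper left. With spike-in scaling, all points move up by 0.86 and left by 0.22.

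Of 38 other genes of replication, 30 were measured, and 11 were called higher and 11 lower in the fold change of enrichment, with a median of -0.05. NASP, a chaperone of linker and core histones, rose by 3.07 (adjusted p = 4.39e-06) and DTYMK, the thymidylate kinase, by 1.91 (adjusted p = 3.29e-06). RNASEH2C, a subunit of the ribonuclease that removes ribonucleotides from DNA, rose by 1.08 (adjusted p = 0.000102). POLE4, the histone-fold partner of POLE3, fell by 0.83 (adjusted p = 6.08e-05), SLBP, which binds histone mRNA, by 0.64 (adjusted p = 0.000555) and MTBP, an origin firing factor, by 0.57 (adjusted p = 0.0383). POLE3 and POLE4, which form a pair in the holoenzyme, thus had opposite directions by the percentile scaling, and with spike-in scaling POLE4, SLBP and MTBP turn, since their falls are smaller than the shift of 1.08. In the input, 3 of the 30 were called higher and 6 lower. NASP fell by 1.33 (adjusted p = 0.000599), DSCC1 by 0.26 (adjusted p = 0.0251) and RNASEH2C by 0.25 (adjusted p = 0.0403), while CHTF18, UHRF1 and CHAF1A rose by 0.43, 0.26 and 0.21 (adjusted p = 0.00353, 0.0406 and 0.0207).

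Other genes of the cell cycle served for comparison. Of 49 measured genes of the mitotic spindle and kinetochore, 10 were called higher and 27 lower in the fold change of enrichment, with a median of -0.37, and of 40 measured cyclin, CDK and E2F genes, 8 were higher and 25 lower, with a median of -0.59. Relative to the all-gene median, these are -0.15 and -0.37, beside 0.02 for the 47 replication genes, and these differences do not move with a shift of all genes. In miR-NC cells, the median enrichment of the replication genes, -0.27, lay between that of the mitotic genes, -0.73, and that of the cyclin, CDK and E2F genes, 0.82. The difference between lists was not tested.

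**Figure D5:**
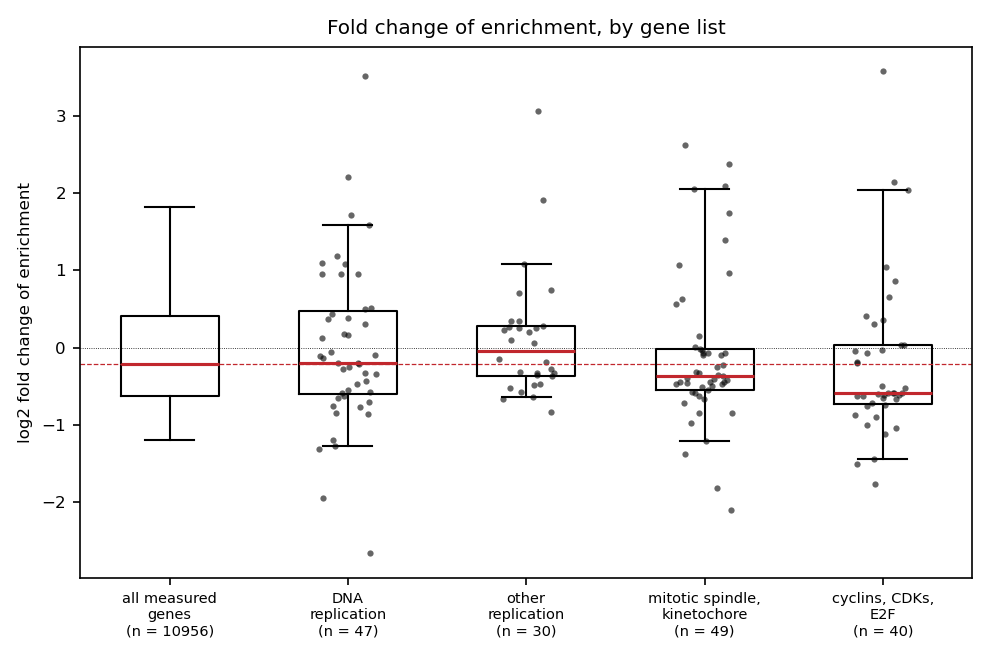
Log2 fold change of enrichment of all measured genes, of the 47 replication genes and of 3 other lists, with n under each name. The box spans the quartiles, the red line is the median, the whiskers reach the 5th and 95th percentiles, points are single genes and the dashed line is the all-gene median of -0.22, which is 0.86 with spike-in scaling. The replication genes have a median close to that of all genes and values on both sides of it.

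A feature that many replication genes share is the E2F motif near their start. RefSeq promoter windows of GRCh38.p14, 300 bases long and mostly upstream of a transcript start, were matched for 43 of the 49 genes. The E2F letters searched, on both strands, were TTTCGCGC, TTTGGCGC, TTTCCCGC and TTTGCCGC. At least 1 window of 21 of the 43 genes (48.8%) held one of them, compared with 3.99% of all 27305 genes of the table, and 36.8% of their 57 windows did, against 3.31% of all 35116 windows. Among the mitotic genes 10.4% did, while TTTGAA, the letters of the CHR element, were in windows of 56.2% of the mitotic genes, 6.98% of the replication genes and 18.2% of all genes. CCAAT was in windows of 58.1% of the replication genes and 39.7% of all genes. These are matches of letters and not measured binding.

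The windows of 4 genes are shown because they pair genes of one complex that moved in opposite directions, MCM7 with MCM3 and GINS2 with GINS3, and each holds E2F letters. The capitals mark the matches, and each sequence is written 5′ to 3′ in the direction of its gene. MCM7 has 3 windows and is represented by the first of them that holds E2F letters. Position of MCM7, chr7:100101348-100101647 on the minus strand. Position of MCM3, chr6:52284693-52284992 on the minus strand. Position of GINS2, chr16:85688905-85689204 on the minus strand. Position of GINS3, chr16:58392221-58392520 on the plus strand.
MCM7: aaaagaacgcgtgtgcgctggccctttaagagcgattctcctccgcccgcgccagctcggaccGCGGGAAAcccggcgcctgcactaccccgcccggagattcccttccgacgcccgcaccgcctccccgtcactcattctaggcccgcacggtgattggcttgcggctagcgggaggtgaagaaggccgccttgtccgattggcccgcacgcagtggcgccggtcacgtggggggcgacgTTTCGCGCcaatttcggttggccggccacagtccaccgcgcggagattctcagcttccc
MCM3: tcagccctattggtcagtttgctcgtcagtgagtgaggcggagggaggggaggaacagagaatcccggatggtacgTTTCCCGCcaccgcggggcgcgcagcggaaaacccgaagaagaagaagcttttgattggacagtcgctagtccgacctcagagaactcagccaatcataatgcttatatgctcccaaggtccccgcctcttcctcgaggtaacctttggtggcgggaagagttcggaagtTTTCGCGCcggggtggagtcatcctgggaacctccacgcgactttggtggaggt
GINS2: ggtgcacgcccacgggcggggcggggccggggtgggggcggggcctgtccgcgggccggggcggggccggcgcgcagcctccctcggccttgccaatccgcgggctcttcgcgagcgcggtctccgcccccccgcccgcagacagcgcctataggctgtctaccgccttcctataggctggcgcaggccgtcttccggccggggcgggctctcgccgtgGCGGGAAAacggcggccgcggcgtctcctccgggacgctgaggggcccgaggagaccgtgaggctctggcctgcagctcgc
GINS3: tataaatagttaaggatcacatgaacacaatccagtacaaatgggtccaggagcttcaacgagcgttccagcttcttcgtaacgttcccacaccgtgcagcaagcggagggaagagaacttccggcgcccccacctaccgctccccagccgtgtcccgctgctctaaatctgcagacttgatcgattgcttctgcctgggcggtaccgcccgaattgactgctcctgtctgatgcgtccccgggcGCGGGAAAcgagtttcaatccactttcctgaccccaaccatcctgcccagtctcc
The fold changes of enrichment of genes with and without the letters overlapped. Of the 19 measured genes with the E2F letters, 6 were called higher and 8 lower, with a median of -0.21, and of the 22 without them, 8 were higher and 9 lower, with a median of -0.10. The median input change was -0.01 in both. The 6 genes with no matched window were MCM4, MCM5, GINS4, RPA2, RPA3 and POLD3.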

How the data were processed

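The authors scanned 8 one-color Agilent arrays of input and AGO2 RIP RNA (2 per group) and extracted intensities with Agilent Feature Extraction (version 9.1 in the submitters' processing notes, 12.0.1.1 per the file headers). The deposited scanner files hold processed signal intensities per spot, already background-corrected, and the deposited value table holds log2 values. These were compared with log2 intensity minus each array's 75th percentile over all probes, each probe then centered on its median over the arrays. Over the 16805 probes well above background on all 8 arrays, the correlations were 0.999 or above. No spot was saturated.

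Spots that were controls or marked as outliers were dropped, spots of one probe were averaged, and log2 intensity was scaled to the 75th percentile of the 16805 probes well above background on all 8 arrays, on each array. Probes were named by RefSeq accession (31104 of 33080 with such an accession matched), and the brightest passing probe stood for a gene. Group means were fitted with limma 3.58.1 in R 4.3.3 with Benjamini-Hochberg adjustment over 10956 genes. Scripts were tested on simulated data. Python 3.11.15, pandas 2.3.3 and matplotlib 3.10.9 made the summaries and figures.

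The genes and lists were chosen with earlier results of these data known. Values on each array are given for the 4 genes with the largest and the 4 with the smallest fold change of enrichment, the 3 largest and 3 smallest input changes, and the 3 highest and 3 lowest enrichments in miR-NC cells. Of the other replication genes, up to 3 rises and 3 falls are named. Alternatives were other background correction, scaling, filters, probe averaging, variance prior, replicate block, call rule, the authors' processed values, and each array left out. Slide and scan were not used as blocks, since all arrays share them.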

Additional observations from a re-analysis of the deposited data

Results flagged for a closer look

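Among the replication genes, 11 had called enrichments of opposite sign in the 2 kinds of cells, with the difference itself tested as the fold change of enrichment. Of all measured genes, 6.1% went from above to below their input and 8.45% the reverse by the same rule. From above to below their input went RFC4 (-2.67), GINS3 (-1.95), DBF4 (-1.27), MCM5 (-0.85), CDC45 (-0.58) and CDC7 (-0.58). From below to above it went POLE3 (1.09), ORC1 (1.1), RFC2 (1.58), GINS4 (1.72) and POLD2 (3.52). The signs of enrichment depend on the scaling. With spike-in scaling, none of the 47 genes was called enriched in miR-NC cells, where 63 of all 10956 measured genes were.

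CDC6 was outside all comparisons, yet its probe was well above background on 7 of 8 arrays. Its level in the 2 arrays of a group was -4.76 and -4.40 (input) and -4.73 and -5.84 (RIP) for miR-NC, against -4.83 and -4.91 (input) and -4.62 and -4.51 (RIP) for miR-634. With the filter on the input arrays alone, its fold change of enrichment was 1.01 and was not called (limma, adjusted p = 0.137).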

How the results depend on the processing

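With spike-in scaling, 32 replication genes were called higher and 2 lower in the fold change of enrichment, 0 and 46 in the miR-NC enrichment, 1 and 41 in the miR-634 enrichment, 0 and 4 in the input change and 29 and 4 in the RIP change, and 23 of the 47 genes, 16 of them called, turned sign in the fold change of enrichment, among them RFC1 (0.88), MCM8 (0.81), RPA2 (0.31) and PRIM2 (1.03). Of all 10956 genes, spike-in scaling gave 7301 and 193, 63 and 10742, 708 and 9195, 32 and 856, and 7345 and 381, in the same order. With the percentile scaling, requiring more than 2-fold as well left 7 and 5, 1 and 3, 6 and 10, 0 and 0, and 5 and 5 replication genes, again in that order. Without a filter on dim probes, the median of the replication genes minus that of all genes was 0.31 in the fold change of enrichment, -0.68 and -0.65 in the miR-NC and miR-634 enrichment, 0.072 in the input change and 0.32 in the RIP change, the last 2 with the sign turned, and 0 genes were called higher and 2 lower in the input. In the input change, scaling to the 75th percentile of all probes gave 1 gene higher and 4 lower, and likewise with the authors' processed values, and 0 were higher with the filter on the input arrays. That filter gave a median difference of -0.064 in the miR-634 enrichment, and centering each contrast gave 19 genes higher there. Normexp with quantile normalization gave median differences of -0.21 in the miR-634 enrichment and -0.12 in the RIP change, and quantile normalization alone -0.21 and -0.081. Leaving out each array in turn gave 0 to 2 genes higher and 2 to 10 lower in the input, and median differences of 0.0096 to 0.10 in the fold change and -0.14 to -0.079 in the miR-634 enrichment. Samples of one number deviated together weakly at most (correlations of -0.04 to 0.08). With 2 arrays a group, this cannot settle whether the numbers pair them. With the replicate block, 0 genes were called higher and 8 lower in the input, and 16 higher and 20 lower in the fold change of enrichment. Mean of the probes, median scaling and the variance prior with an intensity trend kept every count of calls within 1.5 times. The causes were not tested. With 2 arrays a group, small input changes limit what can be called.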
